A study of Mus musculus with 16 samples.

Results

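Interferon regulatory factors are transcription factors that share a DNA-binding domain for GAAA repeats, and 8 of their genes, Irf1, Irf2, Irf3, Irf4, Irf5, Irf7, Irf8 and Irf9, were followed here. The genes were taken by name as a family, with earlier results of these data known, and were 8 of the 55401 genes in the tables. The lists of related genes below were also chosen with earlier results known. All 8 passed the filter on low counts, which left 15277 genes for testing.

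Poly(A) RNA was sequenced from spleen-derived OT-I CD8+ T cells, whose transgenic receptor recognises an ovalbumin peptide. The 16 libraries made 4 groups of 4. TPdh-/- TM cells (libraries 13 to 16) and WT TM cells (9 to 12) were kept in IL-15, which favours memory cells (TM). TPdh-/- TE cells (5 to 8) and WT TE cells (1 to 4) were kept in IL-2, which favours effector cells (TE). Cells of all 4 groups carried the OT-I receptor and were first activated with ovalbumin peptide for several days. TPdh-/- cells came from mice in which Cre driven by the Cd4 promoter acted on a floxed Pdha1 gene, which encodes a subunit of the pyruvate dehydrogenase complex. That promoter is active before T cells leave the thymus, so the gene was targeted during T cell development and not only in culture. The study used adult mice of both sexes, and the labels give neither the age nor the sex of the animals behind a library. Nor do they tell if each library is a different animal or culture. The paper states 5 mice per condition for RNA sequencing of TM cells, against 4 libraries per group here, and does not link mice to libraries. The p values therefore measure library-to-library spread only, which may be technical.

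In T cells, IRF4 is induced by the antigen receptor in proportion to its signal and acts with BATF, and IRF8 joins it in effector differentiation. IRF1 is induced by interferon gamma and activates antigen presentation and guanylate-binding protein genes, while IRF2 binds the same sites and often opposes it. IRF9 is the DNA-binding subunit of ISGF3, the complex that answers type I interferon. IRF3, IRF5 and IRF7 are switched on by kinases downstream of nucleic acid sensors, and in many cells their activity is set more by phosphorylation than by transcript level.

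The promoters of Irf1, Irf2 and Irf8 are printed because each held a match to the site of a factor in these pathways, and because Irf1 and Irf8 are the members that differed most by genotype in TM. RefSeq windows of 300 bases on GRCm38.p6 (250 before and 50 after a start site) were available for all 8 members, 11 windows in all. Capitals mark matches on either strand to the STAT site TTCNNNGAA, the IRF core (GAAA, any 2 bases, GAAA), the ETS-IRF composite (GGAA, any 2 bases, GAAA) and the NF-kB site. All lie on the + strand, at chr11:53769764-53770063 for Irf1, chr8:46739495-46739794 for Irf2 and chr8:120736108-120736407 for Irf8.
Irf1: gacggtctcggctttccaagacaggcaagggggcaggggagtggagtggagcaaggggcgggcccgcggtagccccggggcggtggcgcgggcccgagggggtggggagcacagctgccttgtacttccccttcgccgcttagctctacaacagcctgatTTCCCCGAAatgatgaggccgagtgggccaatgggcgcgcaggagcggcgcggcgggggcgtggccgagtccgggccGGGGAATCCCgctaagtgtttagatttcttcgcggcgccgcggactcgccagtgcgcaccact
Irf2: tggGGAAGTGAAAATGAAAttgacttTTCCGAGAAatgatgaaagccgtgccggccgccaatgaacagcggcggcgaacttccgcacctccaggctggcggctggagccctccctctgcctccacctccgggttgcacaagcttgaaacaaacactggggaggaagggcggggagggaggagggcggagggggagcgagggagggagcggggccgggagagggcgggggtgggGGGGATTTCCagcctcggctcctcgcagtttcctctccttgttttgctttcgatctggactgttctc
Irf8: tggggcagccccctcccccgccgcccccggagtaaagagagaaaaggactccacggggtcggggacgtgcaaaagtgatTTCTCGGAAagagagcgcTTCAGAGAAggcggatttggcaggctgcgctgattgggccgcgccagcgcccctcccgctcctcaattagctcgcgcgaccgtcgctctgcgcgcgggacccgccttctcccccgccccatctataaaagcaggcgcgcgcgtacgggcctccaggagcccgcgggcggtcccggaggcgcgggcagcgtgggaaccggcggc

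In the Irf1 window, the STAT match spanned positions -90 to -82 from the start site and the NF-kB match -13 to -4. The Irf8 window held 2 STAT matches, at -171 to -163 and at -153 to -145. The Irf2 window held an ETS-IRF match at -247 to -238, an IRF core match at -241 to -232 that overlaps it, a STAT match at -224 to -216 and an NF-kB match at -17 to -8. Of 32851 mouse promoter windows of this length, 8.30% held the STAT site, 3.44% the IRF core, 2.72% the composite and 4.51% the NF-kB site. The other 8 windows, among them the Irf4 window and second start sites of Irf1, Irf8 and Irf9, held none of these letters, which says nothing about binding. A match is a description of the sequence and was not tested for function.

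Libraries held 53007257 to 73507566 counts. Library 12 (WT TM) stood apart from its group, with chi-square per degree of freedom of 53.8 to 70.7 against the other libraries. Library 5 had 23.9 to 62.9, where the other pairs of TPdh-/- TE had 19.4 to 24.8. Library 13 had 20.5 to 44.7, where the other pairs of TPdh-/- TM had 16.6 to 23.1. Libraries 5 and 12 were also left out together, while library 13 was left out only singly. Pdha1 averaged 153 ± 8.51 CPM in TPdh-/- TM and 178 ± 11.6 CPM in WT TM cells, and 153 ± 4.21 CPM in TPdh-/- TE and 161 ± 0.787 CPM in WT TE cells (SD, n = 4 each). It fell by 0.22 on the log2 scale in TM (adjusted p = 0.00556, edgeR's quasi-likelihood test with Benjamini-Hochberg adjustment) and its difference of -0.07 in TE did not pass (adjusted p = 0.285). Gene totals do not resolve the floxed exon, so they do not check the deletion. Markers of CD8+ T cells were high in every library (summed TPM 3997 to 4186 in TPdh-/- TM, 4908 to 5163 in WT TM, 3127 to 3476 in TPdh-/- TE and 4039 to 4315 in WT TE). Of these 9 markers 6 fell with genotype in TM and 8 in TE, and 0 rose in either. Over all genes 7.27% fell in TM and 14.3% in TE.

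Per length of transcript, Irf1 was the most abundant member in all 4 groups, and the order of the group means was Irf1, Irf2, Irf9, Irf3, Irf7, Irf4, Irf8 and Irf5 in each of them. Mean Irf1 was 223 ± 24.1 TPM in TPdh-/- TM, 125 ± 10 TPM in WT TM, 92.5 ± 4.74 TPM in TPdh-/- TE and 94.2 ± 9.19 TPM in WT TE cells (SD, n = 4 each). Mean Irf5, the lowest, was 2.97 TPM in TPdh-/- TM, 2.31 TPM in WT TM, 5.27 TPM in TPdh-/- TE and 4.26 TPM in WT TE cells. Several neighbours in this order were not apart. Irf2 and Irf9 overlapped in both TM groups, Irf9 and Irf3 in WT TM, Irf3 and Irf7 in TPdh-/- TE, Irf4 and Irf8 in both TPdh-/- groups, and Irf8 and Irf5 in WT TM. In the 4 libraries of WT TE every member stood clear of the next.

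The 8 members together summed to 411 ± 40.5 TPM in TPdh-/- TM and 294 ± 24 TPM in WT TM cells, against 275 ± 1.43 TPM in TPdh-/- TE and 268 ± 6.79 TPM in WT TE cells. Irf1 supplied most of the genotype difference of that sum in TM. Its share was 54% in TPdh-/- TM, 42.4% in WT TM, 33.6% in TPdh-/- TE and 35.1% in WT TE cells. Irf4 held 1.83% in TPdh-/- TM and 2.46% in WT TM cells, against 7.08% in TPdh-/- TE and 7.73% in WT TE cells. Irf8 held 1.52% and 1.02% in the same TM groups, against 5.04% and 4.52% in the same TE groups. In the plot of shares, Irf1 takes a larger part of the TM bars and Irf4, Irf5, Irf7 and Irf8 a larger part of the TE bars.

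**Figure D1:**
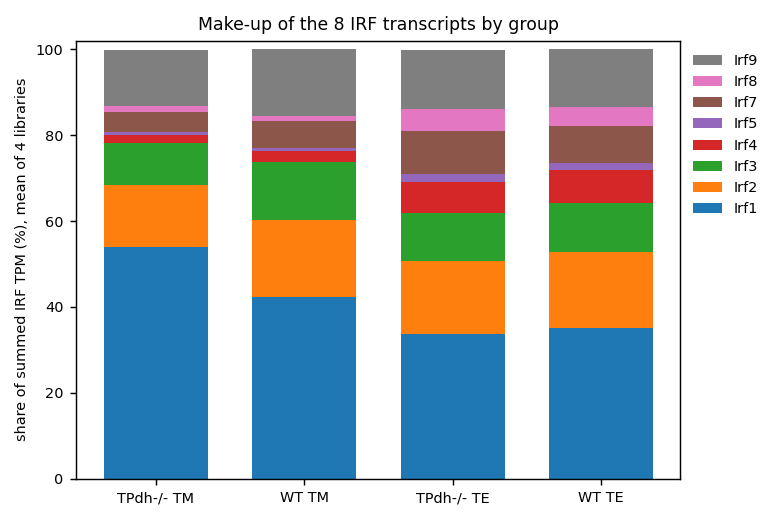
Share of each IRF gene in the summed TPM of the 8 genes (percent, mean of 4 libraries) in TPdh-/- TM, WT TM, TPdh-/- TE and WT TE cells. Irf1 holds 54%, 42.4%, 33.6% and 35.1% of the bars in that order.

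Genotype moved the members mainly in IL-15 culture. In TM, 4 of the 8 were higher in TPdh-/- cells (Irf1, Irf5, Irf8 and Irf9) and 0 were lower, by edgeR's quasi-likelihood test with Benjamini-Hochberg adjustment over all genes. Over all genes tested 18.3% were called in that comparison, 11.0% higher and 7.27% lower. At an unadjusted p under 0.05 the count was 5 higher and 0 lower, and DESeq2 and limma each called 4 higher and 0 lower. Shares of all genes called, here and below, are by edgeR at an adjusted p under 0.05 only. The groups' CPM (counts scaled to library size by TMM) did not overlap for 3 members (Irf1, Irf5 and Irf8), against 20.8% of all genes.

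In TE, 1 member was lower in TPdh-/- cells (Irf4) and 0 were higher, where 31.6% of all genes were called, 17.3% higher and 14.3% lower. At an unadjusted p under 0.05, 3 were lower and 0 higher, and DESeq2 and limma each called 1 lower and 0 higher. The CPM of the groups did not overlap for 1 member, Irf4, against 33.1% of all genes. The test of the difference between the genotype effects, TM minus TE, called 5 members (Irf1, Irf2, Irf4, Irf8 and Irf9), all higher in TM, and 0 lower, where 15.6% of all genes were called, 8.05% higher and 7.51% lower. This difference is signed, here and below, so a fall in TE alone also counts as higher or larger in TM. The counts at an unadjusted p under 0.05, by DESeq2 and by limma were also 5 and 0. Without libraries 5 and 12 the counts were 5 higher and 0 lower for genotype in TM, 0 and 0 in TE, and 3 and 0 for the difference between them.

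Culture moved more members than genotype did, as it moved most of the genes tested. In TPdh-/- cells 3 members were higher in TM than in TE (Irf1, Irf2 and Irf9) and 4 were lower (Irf4, Irf5, Irf7 and Irf8), where 67.7% of all genes were called, 33.0% higher and 34.7% lower. In WT cells 1 was higher (Irf9) and the same 4 were lower, where 68.6% of all genes were called, 34.3% in each direction. CPM did not overlap for 7 members in TPdh-/- cells and 5 in WT cells, against 59.8% and 63.9% of all genes. The genotype comparisons in each culture share libraries with the culture comparisons, so their values are given side by side.

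**Figure D2:**
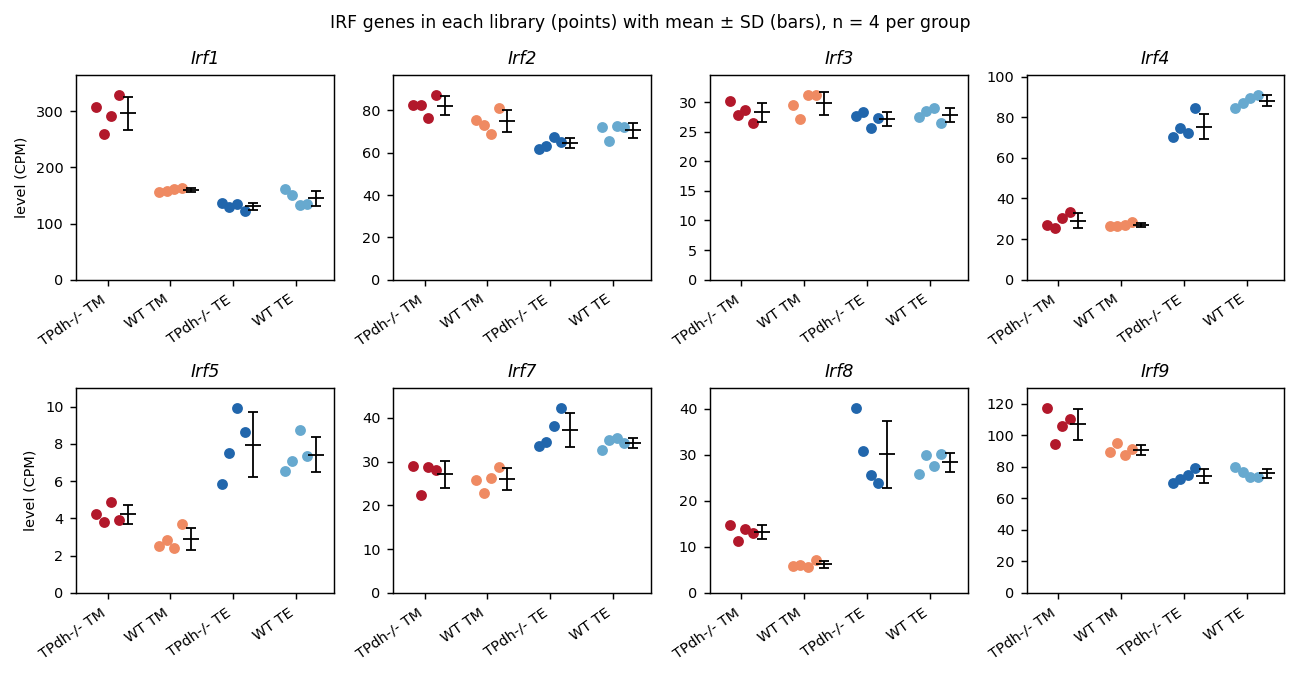
CPM of the 8 IRF genes in each library (points) with the mean ± SD of the group (black bars, n = 4), in TPdh-/- TM, WT TM, TPdh-/- TE and WT TE cells. Each axis starts at 0. Irf1 in TPdh-/- TM sits at 259 to 329 CPM, above every other library, and Irf4 in the 2 TM groups sits at 25.3 to 33.3 CPM, below every TE library.

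Irf1, the activator of the interferon gamma response, had 308, 259, 291 and 329 CPM in TPdh-/- TM libraries, against 156, 158, 161 and 164 CPM in WT TM libraries. It had 136, 130, 134 and 122 CPM in TPdh-/- TE libraries, against 161, 150, 133 and 135 CPM in WT TE libraries. All 4 TPdh-/- TM libraries stood above the other 12, while the 2 TE groups overlapped. The log2 difference by genotype was 0.89 (SE 0.0753, 1.86-fold, adjusted p = 1.94e-07) in TM and -0.15 (SE 0.0724, adjusted p = 0.111) in TE. The 2 effects differed by 1.05 (SE 0.104, adjusted p = 3.06e-06). Between cultures, Irf1 was 1.19 higher on the log2 scale in TM than in TE in TPdh-/- cells (adjusted p = 2.87e-10), while the difference in WT cells was 0.14 (adjusted p = 0.0864). The difference in WT did pass without library 1 (log2 0.19, adjusted p = 0.0316) and in TPM (log2(TPM + 0.5) difference 0.40, adjusted p = 0.000518). Irf1 (ENSMUSG00000018899, chr11:53770014-53778374, + strand) shares 3.4% of its exon bases with Gm17334 on the opposite strand, which the kit cannot tell apart.

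Irf2, which binds the same sites, moved far less. It had 82.4, 82.6, 76.4 and 87.3 CPM in TPdh-/- TM libraries, against 75.7, 73.2, 69.1 and 81.4 CPM in WT TM libraries. It had 61.8, 63.4, 67.3 and 65.3 CPM in TPdh-/- TE libraries, against 72.3, 65.5, 72.7 and 72.1 CPM in WT TE libraries. The genotype groups overlapped in both cultures, the TPdh-/- TM libraries stood clear of the TPdh-/- TE libraries, and the WT groups overlapped between cultures. The genotype differences of 0.14 in TM and -0.13 in TE did not pass (adjusted p = 0.113 and 0.085). The first passed without library 12 (log2 0.18, adjusted p = 0.0354). The second passed without library 2 (log2 -0.18, adjusted p = 0.0387) and without library 12 (log2 -0.14, adjusted p = 0.0376). The difference between the 2 effects was 0.27 (SE 0.0775, adjusted p = 0.0311) and did not pass without any one of libraries 1, 3, 5, 6, 10 and 16 (adjusted p 0.0522 to 0.0587). Irf2 was 0.35 higher on the log2 scale in TM than in TE in TPdh-/- cells (adjusted p = 3.39e-05), against 0.08 in WT cells (adjusted p = 0.204). Irf2 (ENSMUSG00000031627) lies at chr8:46739732-46847458 on the + strand.

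The ratio of Irf1 to Irf2 in TPM followed Irf1. It was 3.76 in TPdh-/- TM libraries (3.34 to 4.21) and 2.37 in WT TM libraries (2.29 to 2.56), as ratios of geometric means with their ranges. It was 1.97 in TPdh-/- TE libraries (1.79 to 2.13) and 2.00 in WT TE libraries (1.75 to 2.28). The TPdh-/- TM range lay above all others, the WT TM range lay just above both TE ranges, and the TE ranges overlapped.

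Genes linked to IRF1 and interferon gamma were mostly higher in TPdh-/- TM cells. Of 25 listed, 21 rose and 0 fell in TM (median log2 0.80, against 0.00 over all genes), and 13 rose and 0 fell in TE (median 0.29). Over all genes 11.0% rose and 7.27% fell in TM, and 17.3% rose and 14.3% fell in TE. At an unadjusted p under 0.05 the counts were 25 and 0 in TM and 17 and 4 in TE. DESeq2 called 22 and 0 in TM and 15 and 2 in TE, and limma called 22 and 0 in TM and 12 and 0 in TE. Without libraries 5 and 12 they were 21 and 0 in TM and 10 and 1 in TE. The genotype effect was larger in TM than in TE for 13 of the 25 and smaller for 0 (16 and 0 at an unadjusted p under 0.05, 13 and 0 by DESeq2, 14 and 0 by limma). Over all genes it was larger for 8.05% and smaller for 7.51%. Gbp2, a guanylate-binding protein that acts against intracellular microbes, averaged 305 ± 30.3 CPM in TPdh-/- TM and 126 ± 5.84 CPM in WT TM cells (log2 1.28, adjusted p = 1.02e-06), and 269 ± 50.7 CPM in TPdh-/- TE and 160 ± 23.7 CPM in WT TE cells (log2 0.75, adjusted p = 0.000136). The immunity-related GTPases Irgm1 and Irgm2 rose by 0.98 and 1.07 on the log2 scale in TM and by 0.29 and 0.35 in TE. Gbp3 rose by 1.01 in TM, while its TE difference of 0.21 did not pass (adjusted p = 0.0674). Nlrc5, the transactivator of MHC class I genes, rose by 0.29 in TM (adjusted p = 0.000945) and by 0.18 in TE (adjusted p = 0.0201). Guanylate-binding proteins and Irgm genes are families of related sequence, so the division of reads within each may be uncertain and was not checked. Casp1, Il15 and Tap1 stand both here and among genes linked to IRF2.

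Genes linked to IRF2 numbered 10, of which 8 passed the filter. In TM 6 rose and 0 fell in TPdh-/- cells (8 and 0 at an unadjusted p under 0.05, 6 and 0 by DESeq2 and by limma), and in TE 3 rose and 1 fell. Of all genes 18.3% were called in TM and 31.6% in TE. The gene that fell in TE was Fasl, which encodes a death ligand of cytotoxic T cells. Fasl averaged 28.7 ± 5.98 CPM in TPdh-/- TM and 9.93 ± 1.6 CPM in WT TM cells (log2 1.53, adjusted p = 4.31e-06), and 41.9 ± 9.45 CPM in TPdh-/- TE and 60 ± 3.98 CPM in WT TE cells (log2 -0.52, adjusted p = 0.0162). Gsdmd, which forms pores in pyroptosis and depends on IRF2 in macrophages, rose by 0.30 in TM and by 0.35 in TE, and Casp1 and Casp4, proteases that cut it, rose in both cultures.

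**Figure D3:**
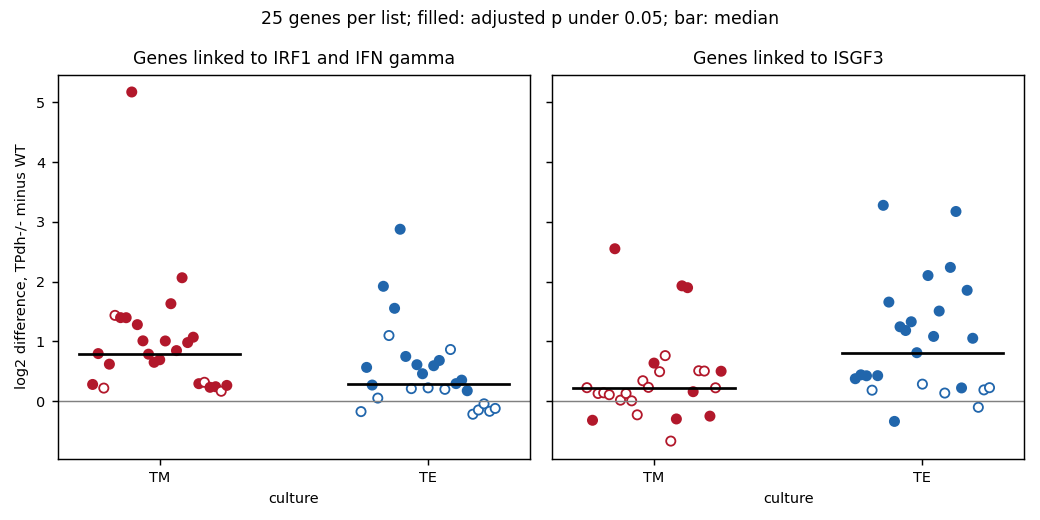
Log2 difference, TPdh-/- minus WT, of the 25 genes linked to IRF1 and interferon gamma (left) and the 25 linked to ISGF3 (right), in TM and TE culture. Each point is a gene, filled where the adjusted p was under 0.05, and the bar is the median, 0.80 in TM and 0.29 in TE on the left, and 0.22 in TM and 0.81 in TE on the right.

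Of 11 genes of interferon ligands and receptors only 6 passed the filter, 3 of them higher and 1 lower in TM, where 18.3% of all genes were called. In TE 1 was higher and 1 lower, a share near the 31.6% of all genes. Ifng, the cytokine, averaged 9.93 ± 1.34 CPM in TPdh-/- TM and 4.68 ± 1 CPM in WT TM cells (log2 1.08, SE 0.184, adjusted p = 0.000888), and 5.05 ± 1.74 CPM in TPdh-/- TE and 3.68 ± 0.402 CPM in WT TE cells (log2 0.46, adjusted p = 0.0948). Of its receptor chains, Ifngr1 rose by 0.18 in TM (adjusted p = 0.0186) and differed by -0.11 in TE (adjusted p = 0.11), while Ifngr2 rose by 0.44 in TM (adjusted p = 0.00108) and by 0.97 in TE (adjusted p = 2.46e-07). Of the type I receptor chains, Ifnar2 fell by 0.21 in TM (adjusted p = 0.00966), and it did not pass in TE, nor did Ifnar1 in either culture.

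Irf9, the DNA-binding subunit of ISGF3, had 117, 94.2, 106 and 110 CPM in TPdh-/- TM libraries, against 89.2, 95.0, 87.3 and 91.1 CPM in WT TM libraries. It had 69.6, 72.4, 74.7 and 79.5 CPM in TPdh-/- TE libraries, against 79.6, 76.7, 73.5 and 73.3 CPM in WT TE libraries. The genotype groups touched in TM, where library 14 lay below WT library 10, and overlapped in TE. Irf9 rose by 0.24 on the log2 scale in TM (SE 0.0713, 1.18-fold, adjusted p = 0.0104) and differed by -0.03 in TE (adjusted p = 0.713). In TPM the TM difference was 0.22 (log2(TPM + 0.5), adjusted p = 0.089). The difference between the 2 effects was 0.27 (adjusted p = 0.0387) and did not pass without any one of libraries 1, 2, 5, 6, 9, 11, 13 and 16 (adjusted p 0.0588 to 0.0734). Irf9 was higher in TM than in TE in both genotypes, by 0.53 on the log2 scale in TPdh-/- cells (adjusted p = 6.64e-07) and by 0.26 in WT cells (adjusted p = 0.00118). Irf9 (ENSMUSG00000002325, chr14:55603571-55610030, + strand) shares 2.3% of its exon bases with Rnf31 on the same strand.

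Stat2, another subunit of ISGF3, differed by 0.15 in TM (adjusted p = 0.164) and rose by 0.33 in TE (adjusted p = 0.00243). Usp18, which shuts down the type I receptor, rose by 1.41 in TM (adjusted p = 0.000261) and by 2.48 in TE (adjusted p = 6.82e-07). Of 17 JAK, STAT and feedback genes 3 rose and 2 fell in TM, where 18.3% of all genes were called, and 5 rose and 3 fell in TE, where 31.6% were. The medians were 0.07 in TM and -0.04 in TE. DESeq2 called 4 higher and 2 lower in TM and 5 higher and 5 lower in TE. Those that fell in TM were the phosphatase genes Ptpn1 (-0.35, adjusted p = 0.0109) and Ptpn6 (-0.76, adjusted p = 5.17e-06).

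Genes linked to ISGF3 were called more often in TE than in TM. Of 25 listed, 6 rose and 3 fell in TM (median log2 0.22), where 11.0% of all genes rose and 7.27% fell. In TE 18 rose and 1 fell (median 0.81), where 17.3% of all genes rose and 14.3% fell. The counts lay closer at an unadjusted p under 0.05, with 14 higher and 4 lower in TM and 20 higher and 1 lower in TE. DESeq2 called 7 and 3 in TM and 19 and 1 in TE. With its sign counted, the genotype effect was smaller in TM than in TE for 12 of the 25 and larger for 1, Ifit2, against 7.51% and 8.05% of all genes. Without libraries 5 and 12 the counts were 6 and 3 in TM and 18 and 1 in TE. Oasl2, an antiviral protein of the OAS family, averaged 1.08 ± 0.291 CPM in TPdh-/- TM and 0.291 ± 0.0934 CPM in WT TM cells (log2 1.90, adjusted p = 0.000704), and 8.36 ± 3.25 CPM in TPdh-/- TE and 0.927 ± 0.283 CPM in WT TE cells (log2 3.17, adjusted p = 2.8e-07). Dhx58, a regulator of RNA sensing, fell by 0.32 in TM (adjusted p = 0.00764) and rose by 0.44 in TE (adjusted p = 0.000294). Zbp1, a nucleic acid sensor, rose by 0.50 in TM (adjusted p = 0.000458) and differed by 0.23 in TE (adjusted p = 0.0509). OAS and IFIT genes are close families, so the split of reads within them is uncertain.

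Irf3 did not pass in any of the 5 tests by counts, with log2 differences between -0.08 and 0.10. It ran from 26.4 to 30.2 CPM in TPdh-/- TM, 27.1 to 31.2 CPM in WT TM, 25.6 to 28.4 CPM in TPdh-/- TE and 26.4 to 29.0 CPM in WT TE libraries, and all groups overlapped. Between cultures it was higher in TM in TPM (log2(TPM + 0.5) difference 0.34, adjusted p = 0.00016 in TPdh-/- cells, and 0.36, adjusted p = 9.5e-05 in WT cells), a scale on which the length that RSEM assigned enters. Without library 10 its difference between cultures in WT cells also passed by counts (log2 0.14, adjusted p = 0.0457). Irf3 (ENSMUSG00000003184, chr7:44997648-45002848, + strand) shares 2.6% of its exon bases with Bcl2l12 on the opposite strand.

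Irf7, which interferon induces in many cells, ran from 22.4 to 29.1 CPM in TPdh-/- TM and 22.8 to 28.9 CPM in WT TM libraries, and from 33.7 to 42.2 CPM in TPdh-/- TE and 32.7 to 35.4 CPM in WT TE libraries. Genotype differences of 0.06 in TM and 0.11 in TE did not pass (adjusted p = 0.689 and 0.356). Both TM groups lay below both TE groups. Irf7 was lower in TM than in TE in TPdh-/- cells (log2 -0.46, adjusted p = 0.000227) and in WT cells (log2 -0.40, adjusted p = 0.000671). Irf7 (ENSMUSG00000025498, chr7:141262706-141266481, - strand) shares 1.2% of its exon bases with Phrf1 on the opposite strand.

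Irf5, which acts downstream of Toll-like receptors in myeloid cells and B cells, was the least abundant member. It had 4.25, 3.79, 4.89 and 3.92 CPM in TPdh-/- TM libraries, against 2.53, 2.83, 2.43 and 3.72 CPM in WT TM libraries. It had 5.83, 7.49, 9.91 and 8.62 CPM in TPdh-/- TE libraries, against 6.53, 7.06, 8.77 and 7.36 CPM in WT TE libraries. The TM genotype groups were barely apart, with library 12 just under the lowest TPdh-/- library, and the TE groups overlapped. Irf5 rose by 0.55 on the log2 scale in TM (SE 0.159, 1.47-fold, adjusted p = 0.0267) and differed by 0.10 in TE (adjusted p = 0.663). The rise did not pass without any one of libraries 9, 10, 11, 13 and 15 (adjusted p 0.0515 to 0.0789) or in TPM (log2(TPM + 0.5) difference 0.40, adjusted p = 0.297). Irf5 was lower in TM than in TE in TPdh-/- cells (log2 -0.92, adjusted p = 6.49e-05) and in WT cells (log2 -1.37, adjusted p = 9.61e-07), with 142 to 324 counts per library in TM. Irf5 (ENSMUSG00000029771, chr6:29526625-29541871, + strand) shares 14.1% of its exon bases with Tnpo3 on the opposite strand.

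Of 21 sensors, adaptors and kinases that act on IRF3, IRF5 and IRF7, 20 passed the filter. In TM 5 rose and 0 fell in TPdh-/- cells (8 and 4 at an unadjusted p under 0.05, 7 and 0 by DESeq2, 5 and 0 by limma), and in TE 4 rose and 4 fell. Over all genes 18.3% were called in TM and 31.6% in TE, and the medians of the list were 0.10 and -0.01. Without libraries 5 and 12 the counts were 8 and 0 in TM and 7 and 4 in TE. Tlr7, a sensor of single-stranded RNA, averaged 3.39 ± 0.685 CPM in TPdh-/- TM and 1.28 ± 0.319 CPM in WT TM cells (log2 1.40, adjusted p = 6.09e-05), and 3.47 ± 0.66 CPM in TPdh-/- TE and 0.403 ± 0.056 CPM in WT TE cells (log2 3.10, adjusted p = 2.9e-08). Ifih1, a sensor of double-stranded RNA, rose by 0.55 in TM (adjusted p = 7.16e-05) and by 0.56 in TE (adjusted p = 3.75e-05), and Ddx58, which senses RNA ends, rose by 0.20 in TM (adjusted p = 0.012). The gene of TASL, the adaptor that recruits IRF5 in human cells, is named 5430427O19Rik in the annotation. It rose by 0.49 in TM (adjusted p = 0.00218) and fell by 0.34 in TE (adjusted p = 0.015), and the 2 effects differed by 0.83 (adjusted p = 0.000653).

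Irf4 differed mainly between the cultures. It had 27.1, 25.3, 30.5 and 33.3 CPM in TPdh-/- TM libraries, against 26.5, 26.4, 27.0 and 28.4 CPM in WT TM libraries. It had 70, 74.7, 72.3 and 84.3 CPM in TPdh-/- TE libraries, against 84.7, 87.0, 89.4 and 90.9 CPM in WT TE libraries. Every TM library lay far below every TE library, the TM groups overlapped, and the TE groups were just apart, library 8 against library 1. Irf4 was lower in TM than in TE in TPdh-/- cells (log2 -1.37, SE 0.106, 2.59-fold, adjusted p = 1.01e-10) and in WT cells (log2 -1.70, SE 0.0329, 3.25-fold, adjusted p = 7.75e-12). By genotype it differed by 0.10 in TM (adjusted p = 0.376) and fell by 0.22 in TE (SE 0.0623, adjusted p = 0.0265). The fall in TE did not pass without any one of libraries 4, 5 and 7 (adjusted p 0.0525 to 0.073) or in TPM (log2(TPM + 0.5) difference -0.09, adjusted p = 0.488). In TPM the median of all genes shifted by 0.11 in that comparison, and relative to it Irf4 was at -0.20. The 2 genotype effects differed by 0.33 (adjusted p = 0.0421), which did not pass without any one of 11 libraries (2, 3, 4, 5, 6, 7, 9, 10, 11, 15 and 16, adjusted p 0.0516 to 0.0763). Irf4 (ENSMUSG00000021356) lies at chr13:30749226-30766976 on the + strand.

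Batf, the partner of IRF4 at composite sites, moved with the culture in the same direction. It averaged 14.4 ± 1.99 CPM in TPdh-/- TM and 14.5 ± 1.38 CPM in WT TM cells, and 36.8 ± 2.47 CPM in TPdh-/- TE and 45.4 ± 0.718 CPM in WT TE cells. Batf was lower in TM in TPdh-/- cells (log2 -1.35) and in WT cells (log2 -1.64, adjusted p = 5.14e-11), and was lower by genotype in TE (log2 -0.30, adjusted p = 0.01). Ikzf1 and Ikzf3, lymphocyte factors that pair with IRF4, fell in TE by 0.32 and 0.66, and Ikzf1 fell in TM by 0.14 while Ikzf3 differed by -0.14 (adjusted p = 0.237). Of 18 partners and corepressors 16 passed the filter, with 2 higher and 4 lower by genotype in TM and 2 higher and 5 lower in TE, against 18.3% and 31.6% of all genes called in those comparisons. Without libraries 5 and 12 the TM count was 1 higher and 3 lower. Spi1, which encodes PU.1, the myeloid partner of IRF4 and IRF8, did not pass the filter. Its mean was 0.189 CPM in TPdh-/- TM, 0.0537 CPM in WT TM, 0.0162 CPM in TPdh-/- TE and 0.00823 CPM in WT TE cells.

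Of 14 genes of antigen receptor and NF-kB signalling that act upstream of Irf4 and Irf1, 1 rose and 6 fell by genotype in TM, and 1 rose and 5 fell in TE. Over all genes 7.27% fell in TM and 14.3% in TE. Without libraries 5 and 12 the TM count was 2 higher and 5 lower, and the median was -0.08 in place of -0.18. Relb, an NF-kB subunit, was the one that rose, by 0.44 in TM (adjusted p = 0.00231) and 0.28 in TE (adjusted p = 0.0251). The early response gene Egr1 fell by 0.96 in TM and by 0.83 in TE, and Nr4a1, a reporter of receptor signalling, fell by 1.07 in TM (adjusted p = 0.00167) and differed by -0.06 in TE (adjusted p = 0.857).

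Of 19 genes linked to IRF4 in activated CD8+ T cells, 6 were higher and 13 lower in TM than in TE in WT cells (median log2 -1.38), and 6 higher and 10 lower in TPdh-/- cells (median -0.94), where 68.6% and 67.7% of all genes were called. By genotype 6 rose and 2 fell in TM (10 and 2 at an unadjusted p under 0.05), where 18.3% of all genes were called. In TE 5 rose and 9 fell (6 and 9 at an unadjusted p under 0.05), where 31.6% were called. With its sign counted, the genotype effect was larger in TM for 8 and smaller for 1, against 8.05% and 7.51% of all genes. Prdm1, which encodes Blimp-1, a driver of terminal effector cells, averaged 4.85 ± 1.75 CPM in TPdh-/- TM and 1.57 ± 0.405 CPM in WT TM cells (log2 1.62, adjusted p = 5.76e-05), and 9.91 ± 1.43 CPM in TPdh-/- TE and 18.2 ± 1.77 CPM in WT TE cells (log2 -0.88, adjusted p = 0.00209). Havcr2, which encodes the inhibitory receptor TIM-3, averaged 5.36 ± 2.38 CPM in TPdh-/- TM and 0.418 ± 0.185 CPM in WT TM cells (log2 3.66, adjusted p = 4.79e-07). Its TE levels were higher, at 25.3 ± 2.89 CPM in TPdh-/- TE and 32.4 ± 2.62 CPM in WT TE cells. Id2, an effector regulator, rose by 1.14 in TM (adjusted p = 8.74e-06) and fell by 0.36 in TE (adjusted p = 0.0396). Tbx21, which encodes T-bet, differed by -0.14 in TM (adjusted p = 0.392) and fell by 0.30 in TE (adjusted p = 0.0333).

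Irf8 was higher in TE than in TM and had the largest genotype difference of the 8 in TM. It had 14.8, 11.2, 13.9 and 13.1 CPM in TPdh-/- TM libraries, against 5.93, 6.11, 5.56 and 7.21 CPM in WT TM libraries. It had 40.1, 30.9, 25.6 and 23.9 CPM in TPdh-/- TE libraries, against 25.8, 30.0, 27.6 and 30.1 CPM in WT TE libraries. The TM groups did not overlap, the TE groups did, and library 5 was the highest of all 16. By genotype Irf8 rose 2.14-fold in TM (SE 0.118 on the log2 scale, adjusted p = 2.89e-05) and differed by 0.09 in TE (SE 0.175, adjusted p = 0.655). The 2 effects differed by 1.01 (SE 0.212, adjusted p = 0.00164). Irf8 was lower in TM than in TE in TPdh-/- cells (log2 -1.18, 2.27-fold, adjusted p = 5.7e-07) and in WT cells (log2 -2.19, 4.57-fold, adjusted p = 5.51e-10). Irf8 (ENSMUSG00000041515) lies at chr8:120736358-120756694 on the + strand.

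**Figure D4:**
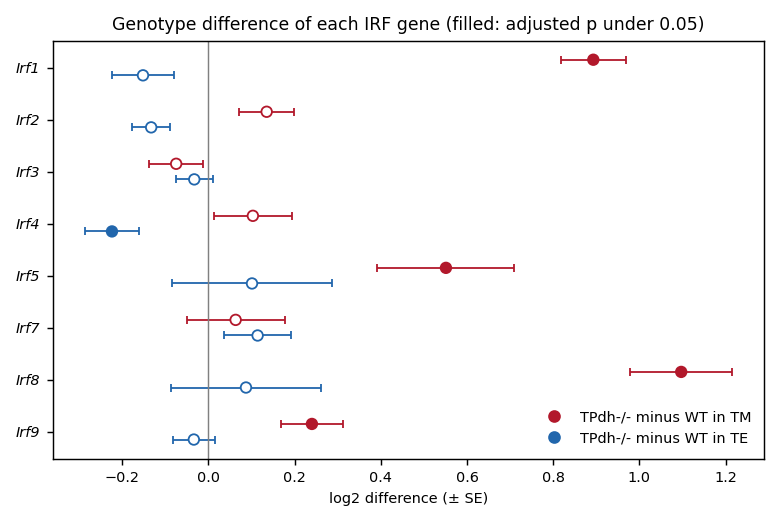
Log2 difference, TPdh-/- minus WT, of each IRF gene in TM (red) and TE (blue) with its SE, filled where edgeR's adjusted p was under 0.05. Irf1 at 0.89, Irf8 at 1.1, Irf5 at 0.55 and Irf9 at 0.24 are filled in TM, and Irf4 at -0.22 is filled in TE.

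Irf8 is a defining factor of dendritic cells and is expressed in macrophages and B cells. Markers of macrophages were mostly higher by genotype in both cultures, and those of conventional dendritic cells in TM. In TE the dendritic cell calls were mixed and the sums overlapped. Over all genes 11.0% were higher in TM and 17.3% in TE. The 12 macrophage and monocyte markers summed to 26 to 43.6 TPM in TPdh-/- TM and 5.65 to 7.42 TPM in WT TM libraries, and to 14.2 to 22.7 TPM in TPdh-/- TE and 8.41 to 10.9 TPM in WT TE libraries. Of the 8 that passed the filter 7 were higher by genotype in TM and 6 in TE, and 0 were lower in either. Most of the TPdh-/- TM sum came from Lyz2 (17.7 to 28.8 TPM in TPdh-/- TM and 2.14 to 3.14 TPM in WT TM libraries). The 9 conventional dendritic cell markers summed to 20.5 to 34.1 TPM in TPdh-/- TM and 4.48 to 7.18 TPM in WT TM libraries, and to 17.5 to 25.8 TPM in TPdh-/- TE and 17.2 to 28.1 TPM in WT TE libraries. Of the 6 that passed the filter 6 were higher by genotype in TM, and 3 were higher and 1 lower in TE. Cd209a was at 0 and Flt3 under 0.1 TPM in every library. Among 9 B cell markers the sum was 10.6 to 51.2 TPM in TPdh-/- TM and 12.1 to 27.1 TPM in WT TM libraries, which overlapped. The sum was 9.11 to 12.1 TPM in TPdh-/- TE and 7.19 to 8.09 TPM in WT TE libraries, which did not overlap. By genotype 1 of 9 was higher in TM, as over all genes, and 0 were called in TE. Natural killer markers, which activated CD8+ T cells can also express, summed to 505 to 1159 TPM in TPdh-/- TM and 52.6 to 132 TPM in WT TM libraries, with 8 of 9 higher. In TE they summed to 732 to 923 TPM in TPdh-/- and 1662 to 1870 TPM in WT libraries, with 5 higher and 2 lower. Over all genes 17.3% were higher and 14.3% lower in TE. Most of the TPdh-/- TM sum and of the TE sums came from 1 gene, Gzma. It had 415 to 1026 TPM in TPdh-/- TM and 24.9 to 99.4 TPM in WT TM libraries. In TE it had 693 to 878 TPM in TPdh-/- and 1617 to 1811 TPM in WT libraries. Ncr1, Klra8 and Klra4 were under 0.1 TPM in every WT TE library. The plot of Irf8 beside the markers gives the macrophage and B cell sums by library. The part of such cells in the Irf8, Irf5 and Irf1 differences was not tested. In bulk samples, fewer cells of a type and less RNA per cell cannot be told apart.

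**Figure D5:**
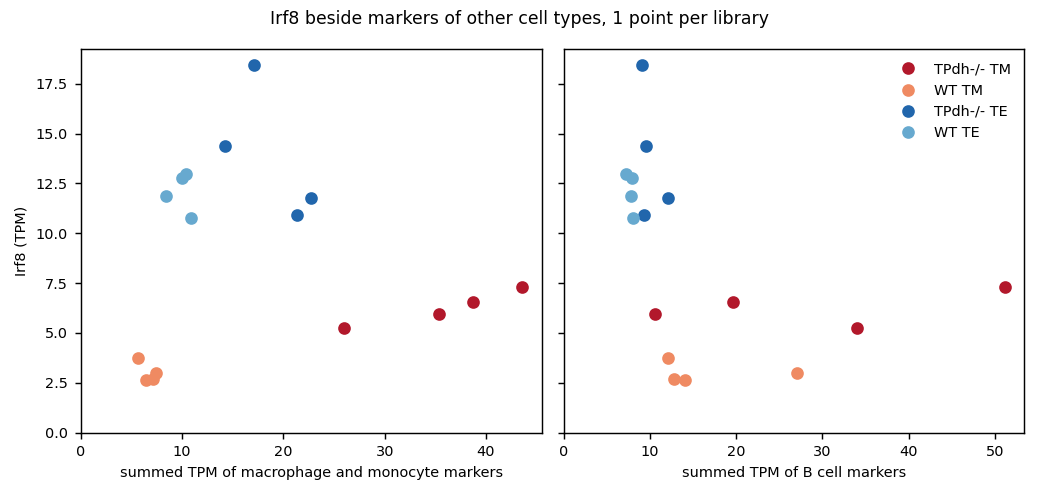
Irf8 (TPM) against the summed TPM of macrophage and monocyte markers (left) and B cell markers (right), 1 point per library, coloured by group. TPdh-/- TM libraries lie at the highest macrophage sums, 26 to 43.6 TPM, with Irf8 at 5.26 to 7.32 TPM, and the TE libraries, with the highest Irf8, at macrophage sums of 8.41 to 22.7 TPM.

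Ratios between members set these changes side by side. Irf4 to Irf8, which are close relatives that share partners, stood at 1.20 in TPdh-/- TM (1.02 to 1.40) and 2.42 in WT TM libraries (2.23 to 2.59), in TPM. It stood at 1.43 in TPdh-/- TE (0.967 to 2.00) and 1.71 in WT TE libraries (1.60 to 1.83). The WT TM range was the only one clear of the other 3. Irf8 to Irf1 stood at 0.0281 in TPdh-/- TM and 0.0240 in WT TM, against 0.147 in TPdh-/- TE and 0.128 in WT TE libraries. The genotype ranges of that ratio overlapped in both cultures, and the TM ranges lay far below the TE ranges.

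RSEM also gives each gene an abundance-weighted transcript length, which moves only with the mix of transcripts it assigned. By genotype in TM the length of 1 member, Irf1, did not overlap (1850 to 1868 bases in TPdh-/- TM, 1822 to 1838 bases in WT TM libraries), against 4.0% of the genes with several transcripts. In TE it was Irf3 alone (1281 to 1328 bases in TPdh-/- TE, 1229 to 1278 bases in WT TE libraries), against 5.68%. Between cultures in TPdh-/- cells, 3 members did not overlap, against 25.6% of genes: the mean lengths of Irf1 and Irf3 were shorter in TM (differences of -78.5 and -177.3 bases) and that of Irf9 was 89.8 bases longer. In WT cells 4 members did not overlap, against 25.9% of genes: Irf1 was shorter in TM (difference of -87.5 bases), and Irf2, Irf7 and Irf9 were 121.5, 67.2 and 147.0 bases longer. Irf4 kept 4763 bases in every library.

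Genes of most like pattern were sought for the 4 members whose group means spanned at least 1 on the log2 scale, by the root mean square difference of centred log2 CPM over 16 libraries. Nearest to Irf1 were Cd274, which encodes the checkpoint ligand PD-L1 (0.146), Asap2 (0.182) and the interferon-inducible GTPase gene Ifi47 (0.188). Nearest to Irf4 were Batf (0.113), Slc37a4, a glucose 6-phosphate transporter (0.129), and Prelid1, a mitochondrial lipid transfer protein (0.137). Nearest to Irf5 were Unc93b1, the chaperone of nucleic acid-sensing Toll-like receptors (0.148), Slc27a1 (0.176) and Blvrb (0.197). Nearest to Irf8 were Cobll1 (0.216), Ptpn3 (0.223) and Hip1 (0.237). Cd274, the closest to Irf1, averaged 53.9 ± 5.67 CPM in TPdh-/- TM, 35.1 ± 0.785 CPM in WT TM, 30.1 ± 2.84 CPM in TPdh-/- TE and 29 ± 0.852 CPM in WT TE cells. These are descriptions of likeness among 10616 candidates in these 16 libraries.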

How the data were processed

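Per the labels, RNA was selected for poly(A), prepared with the TruSeq version 2 kit, which loses strand, and read on an Illumina NovaSeq. The submitters' processing notes name STAR 2.7.6a, RSEM 1.3.3, DESeq2 and mm10 (GRCm38), and the annotation release is not given in the sources used here. For each gene and library the authors deposited the expected count from RSEM, which need not be whole, and TPM, which scales for transcript length and library total. FPKM was not used. Names and positions came from GENCODE M21, which matched 55141 of 55401 identifiers (99.53%).

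Expected counts were rounded, filtered with filterByExpr (minimum count 10, minimum total 15) and scaled by TMM in edgeR 4.0.16 (R 4.3.3). All 16 libraries entered 1 quasi-likelihood fit with a mean for each group. There were 5 contrasts: the genotype difference in each culture, the culture difference (TM minus TE) in each genotype, and the interaction, by which the genotype difference in TM exceeds the one in TE. The p values of a contrast were adjusted by Benjamini-Hochberg over 15277 genes and called below 0.05. Fold changes come from the fit, and SE from log2 CPM with a prior count of 2. Levels are compared between genes only in TPM. The common coefficient of biological variation was 0.104. The method was tested on simulated data. Alternatives were DESeq2 1.42.0, its size factors in edgeR, limma 3.58.1 on log2 CPM and on log2(TPM + 0.5) or log2(TPM + 0.05), no filter, only the groups compared, and leaving out libraries.

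The members and lists were chosen with earlier results of these data known. Named were all 8 members, up to 4 genes of each list by smallest adjusted p for genotype in TM with at least 1 CPM in the higher group, 15 genes always taken (among them Ifng, Batf, Prdm1 and Pdha1), and up to 3 genes of most like pattern per member. Ifit2, Il15, Tap1 and the markers were named after their values were seen. Tables and figures were made in Python 3.11.15 (pandas 2.3.3, numpy 2.4.6, matplotlib 3.10.9). Some results for single genes are not reported here.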

Additional observations from a re-analysis of the deposited data

Results flagged for a closer look

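The genotype effect differed between TM and TE, by the interaction term of edgeR's quasi-likelihood test, for 5 members: Irf1 (1.045, adjusted p = 3.06e-06), Irf8 (1.010, adjusted p = 0.00164), Irf4 (0.328, adjusted p = 0.0421), Irf9 (0.274, adjusted p = 0.0387) and Irf2 (0.268, adjusted p = 0.0311). These are signed log2 differences, TM minus TE. The genotype difference of Irf4 was 0.10 in TM and -0.22 in TE, and that of Irf2 was 0.14 and -0.13. Over all genes 15.6% were called. The terms of Irf4, Irf9 and Irf2 did not pass in TPM, nor when certain single libraries were left out.

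Single libraries stood far from the other 3 of their group in 6 of 60 groups of values examined, where chance flags about 1 in 20. Irf5 in WT TM library 12 was 4.44 TPM with a transcript length of 1384 bases, while its CPM of 3.72 was less far from the others. Irf4 in the same library was 8.3 TPM. Irf5 in WT TE library 2 had a length of 2009 bases, Irf1 in TPdh-/- TM library 15 a length of 1868 bases, and Irf7 in WT TE library 1 was 21.9 TPM.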

How the results depend on the processing

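Of 952 fits of a member under an alternative, 890 kept the call, 62 took another and 0 reversed. The genotype differences of Irf1 and Irf8 in TM, and their interaction terms, kept their calls under every alternative. Leaving out 1 library at a time gave 3 to 5 members called for genotype in TM, 0 to 2 for genotype in TE, 7 in every case for culture in TPdh-/- cells, 5 to 6 for culture in WT cells and 2 to 5 for the interaction. Genes called over the whole table ran from 2170 to 3114, 4051 to 5507, 9820 to 10793, 9972 to 10751 and 1839 to 2685 in the same order. For genotype in TM, log2(TPM + 0.5) gave 1674 genes and 2 members and log2(TPM + 0.05) gave 1792 genes and 2 members, against 2796 and 4. For genotype in TE, both TPM settings and leaving out libraries 5 and 12 gave 0 members, against 1. For the interaction, both TPM settings gave 2 members, and no filter and leaving out libraries 5 and 12 gave 3, against 5; the cause was not tested. In log2(TPM + 0.5) the median of all genes shifted by 0.109 for genotype in TE, 0.145 for culture in WT cells and -0.143 for the interaction, where the edgeR fit stayed near 0. No paired analysis was possible because each library has its own number in the labels. Counts of Irf5, 142 to 324 per library in TM, limit its precision most. List counts by DESeq2, by limma and without libraries 5 and 12 were added after the data were seen.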
